A study of Mus musculus with 24 samples.

Results

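The genes described here are 35 genes of fatty acid oxidation, together with targets and partners of the peroxisome proliferator-activated receptors (PPARs), measured by RNA sequencing of mouse thoracic aorta. They were chosen by name, with earlier results of these data known. All 35 were found by symbol among the 25941 genes of the deposited count table, 1 row each. By role they were 5 genes of the carnitine shuttle, 9 of mitochondrial beta-oxidation, 3 of electron transfer, 5 of the peroxisome, 2 acyl-CoA thioesterases, 8 of fuel switching, uncoupling and lipid handling, and 3 nuclear receptors or coactivators. The mice were wildtype C57BL/6 males, adults 10 to 12 weeks old. For 3 weeks their chow held celecoxib at 100 or rofecoxib at 50 mg/kg/day, or no drug (control). Celecoxib and rofecoxib are selective inhibitors of cyclooxygenase-2. Every mouse, controls included, was given interleukin-1β at 10 ug/kg into the peritoneum 4 h before the aorta was taken at zeitgeber time 11 (hours after lights on), so no group shows these genes without the cytokine. Each group held 8 libraries, which the series calls biological replicates.

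Cells that burn fatty acids first couple them to carnitine to carry them into mitochondria, where a repeated cycle of dehydrogenation, hydration, oxidation and thiolysis shortens the chain and hands electrons to the respiratory chain. Very long chains are shortened first in peroxisomes. PPARα and PPARδ, receptors that bind fatty acids, switch on many of these genes with the help of coactivators such as PGC-1. The fat that surrounds the thoracic aorta in mice resembles brown fat, a tissue rich in this machinery, while smooth muscle of the vessel wall has its own lower demand.

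Library totals lay between 21668798 and 21700121 reads, and all 35 genes passed the expression filter, as did 14528 genes in all. Levels are given as CPM (reads scaled to a common library size after TMM correction), and 3 values for a group are its lowest, median and highest library. Smooth muscle markers summed to between 26680 and 43190 CPM in every library, the labelled tissue. Reads of the adipocyte marker sets were present in every library too, and their sums differed between groups. The 9 brown adipocyte markers summed to 279.8 to 1280 CPM in controls, 201.1 to 645.0 with celecoxib and 471.1 to 1945 with rofecoxib. None of the 9 was at 0 in every library. Zic1 was at 0 in 4 control, 2 celecoxib and 3 rofecoxib libraries and did not pass the filter, and the other 8 were tested. The mean log2 level of those 8 was 5.29 ± 0.68 (SD, n = 8) in controls, 4.81 ± 0.78 with celecoxib and 5.99 ± 0.885 with rofecoxib. The 14 general adipocyte markers summed to 474.4 to 2781, 413.4 to 1581 and 639.1 to 3616 CPM, with mean log2 levels of 4.91, 4.75 and 5.85. Ucp1, the uncoupling protein that defines brown fat, ranged from 11.1 CPM in a celecoxib library to 986 CPM in a rofecoxib library. Not all brown adipocyte markers differed so much. Dio2 had medians of 69.0, 66.3 and 73.1 CPM in controls, celecoxib and rofecoxib, and Prdm16 90.4, 87.95 and 97.2 CPM. Rofecoxib replicate 8 and celecoxib replicate 5 were the lowest of their groups in brown adipocyte level, 4.81 and 3.10, rofecoxib replicate 7 and control replicate 4 the highest of theirs, 7.04 and 6.50. Markers of skeletal muscle, another tissue rich in these enzymes, were low, with sums of 29.7 to 140.3 CPM, the highest in control replicate 3. Cardiac muscle markers summed to 1061 CPM in celecoxib replicate 2 and to at most 138.8 CPM in any control or rofecoxib library. In celecoxib against control 0 of the 35 genes were called both with celecoxib replicate 2 and without it. Without it 16 of 14608 genes were called higher and 18 lower. The median log2 fold change of the 35 was -0.20 with it and -0.151 without it. The part of cardiac muscle in these values was not tested. In whole tissue, more cells of a type and more RNA per cell cannot be told apart.

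In control aorta the genes covered a wide range of abundance. Scaled to transcript length, the most abundant was Acadl, which opens the cycle on long chains, at a control median of 124 CPM per kb, followed by Pdk4, the kinase that turns off pyruvate oxidation, at 122. The electron transfer flavoprotein subunits Etfb and Etfa came next at 99.5 and 97.6 CPM per kb, and Hadhb and Acadm at 89.1 and 88.9. Control ranges of neighbours in this order overlapped. The lowest were Ppargc1b at 0.446, Ppara at 0.402 and Acot1 at 0.330 CPM per kb. Related genes differed in level: Cpt1a, the widely expressed form of the enzyme that loads fatty acids onto carnitine, stood at 16.2 CPM per kb and Cpt1b, the form of muscle and brown fat, at 0.824. Ucp2 stood at 7.48 and its relative Ucp3 at 1.63 CPM per kb.

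The genes also differed in how much they varied from library to library. Over the 24 libraries the highest CPM was 23.4 times the lowest for Plin5, which ties lipid droplets to mitochondria. The same ratio was 20.9 for Ucp3, 20.6 for Cpt1b, 15.6 for Ppargc1b and 10.4 for the thiolase Acaa2. It was only 1.410 for the peroxisomal thiolase Acaa1a, 1.62 for the peroxisomal transporter Abcd3, 1.72 for Mlycd and 1.78 for Cpt1a. Genes that varied widely thus stood beside close relatives that varied little.

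Rofecoxib was the diet under which these genes stood higher. In rofecoxib against control, 7 of the 35 rose and 0 fell at an adjusted p under 0.05 by the quasi-likelihood test of edgeR, with p-values adjusted over all genes by Benjamini-Hochberg. The 7 were Ehhadh, Acot2, Acot1, Ucp3, Ppargc1b, Ppara and Etfdh. Among all genes tested, 6.94% were called in this comparison, 3.88% as higher and 3.06% as lower, or 563 and 445 genes. With library size alone as the scaling those were 1106 and 310, and 12 of the 35 rose and 0 fell. The log2 fold change was above 0 for 32 of 35 genes, against 54.9% of all genes, and its median was 0.605, against 0.023 over all genes. Before adjustment 25 of 35 had a p under 0.05, against 28.2% of all genes. None of the 35 had all 8 rofecoxib libraries above every control, an arrangement of 0.275% of all genes. DESeq2 called 16 of the 35, all as higher, against 12.5% of all genes in either direction, and limma voom with sample weights, which gives libraries that stand apart less weight, 21, all as higher, against 16.9%. Brown and general adipocyte marker levels were also higher in the rofecoxib group, by 0.70 and 0.94 on the log2 scale, as were endothelial (0.40), macrophage (0.30), neutrophil (0.59) and Schwann cell (0.77) levels, while the smooth muscle level was lower (-0.18). In endothelial level 6 of 8 rofecoxib libraries lay above every control. Fits that hold the adipocyte levels are given further on, and the part of the other cell types was not tested.

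**Figure D1:**
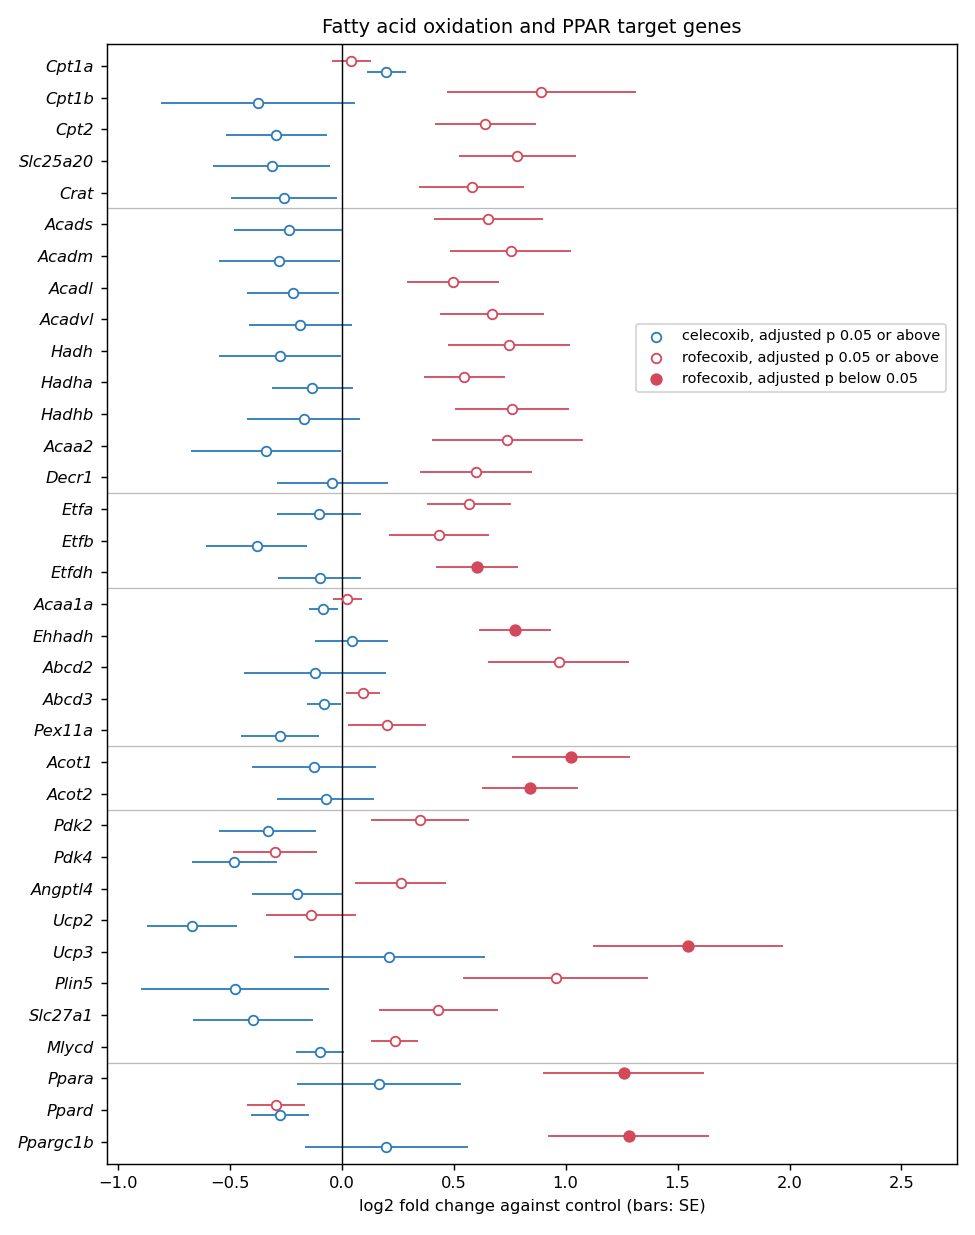
Log2 fold change against control (x axis) with its SE for each of the 35 genes, ordered by role with lines between roles; blue is celecoxib, red is rofecoxib, and filled points passed an adjusted p under 0.05. The 7 filled points are all rofecoxib and right of 0, and no celecoxib point is filled; both drugs are set against the same 8 controls.

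The count of 7 rested on single libraries. It was 4, 2, 14, 1 and 19 without rofecoxib replicates 2, 4, 5, 7 and 8 in turn, where 3.68%, 3.65%, 7.45%, 2.62% and 13.3% of all genes were called. It was 3, 1, 22, 3, 1, 2 and 4 without control replicates 1, 2, 4, 5, 6, 7 and 8, where 3.19%, 2.45%, 12.2%, 4.08%, 3.45%, 2.92% and 5.70% of all genes were. The share of all genes called was also higher or lower in these fits. In the 24 fits that each left out 1 library, Ehhadh was called in 24, Acot1 in 21, Acot2 in 19, Ucp3 and Ppara in 16, Ppargc1b in 15 and Etfdh in 7.

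Against the same controls, celecoxib gave no call among these genes. In celecoxib against control 0 of 35 genes were called by edgeR, 0 by DESeq2 and 0 by limma voom, where the tools called 0.0344%, 0.757% and 0.833% of all genes. Before adjustment 4 genes had a p under 0.05 (Cpt1a, Pdk4, Ucp2 and Ppard), against 13.6% of all genes. The log2 fold change was below 0 for 30 of 35 genes, against 49.6% of all genes, with a median of -0.20 against 0.001. That median was not shared by all libraries. It was -0.369 in the fit of replicates 1 to 4 only and 0.015 in that of replicates 5 to 8 only. The brown adipocyte level was lower with celecoxib (-0.48 on the log2 scale), as were neutrophil (-0.88) and Schwann cell (-0.78) levels. The cardiac muscle level was higher (0.89), with 2 of 8 celecoxib libraries above every control. Fits that hold the brown adipocyte level are given further on, and the part of the others was not tested.

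With the drugs set side by side at their own doses, 18 of the 35 genes were lower with celecoxib than with rofecoxib and 0 were higher, where edgeR called 4.89% of all genes, 4.32% as lower and 0.564% as higher. The log2 difference was below 0 for 33 of 35 (48.3% of all genes), with a median of -0.829 against 0.006, and 31 had a p under 0.05 before adjustment (23.0% of all genes). The adjusted p of the 18 lay between 0.0369 and 0.0484, all near the threshold. The count was 0 without celecoxib replicate 2, 3, 4 or 5 and without rofecoxib replicate 2, 3, 4 or 7, fits in which at most 0.0206% of all genes were called. It was 6 without rofecoxib replicate 1, 28 without rofecoxib replicate 8, and 10 and 7 without control replicates 2 and 6, where 1.65%, 13.7%, 3.06% and 2.49% of all genes were called. It was also 0 with no expression filter and 0 when only these 16 libraries were fitted. In those fits 0 of 25136 and 0 of 14178 genes were called. The doses were 100 and 50 mg/kg/day, so the drugs were not compared at matched doses.

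The carnitine shuttle, which moves fatty acids into mitochondria, had 0 of 5 genes called in rofecoxib against control by edgeR, 2 by DESeq2 (Cpt2 and Slc25a20) and 3 by limma voom (with Crat). In celecoxib against rofecoxib edgeR called 3 of 5 lower. Slc25a20 lay at 21.8, 37.8 and 81.7 CPM in controls, 17.6, 33.5 and 49.3 with celecoxib and 30.7, 76.8 and 111 with rofecoxib. It encodes the translocase that swaps acylcarnitine for carnitine across the inner membrane, and 4 of 8 rofecoxib libraries exceeded every control. Its log2 difference was 0.78 (SE 0.26) for rofecoxib against control, adjusted p = 0.0635, and -1.10 (SE 0.26) for celecoxib against rofecoxib, adjusted p = 0.0369. Cpt2 stood at 39.3, 54.3 and 116 CPM in controls, 34.2, 49.2 and 73.8 with celecoxib and 45.5, 103 and 142 with rofecoxib. Cpt2 rebuilds acyl-CoA inside the mitochondrion, and its groups overlapped, with 3 celecoxib libraries below every rofecoxib library. It gave 0.64 (SE 0.225) against control with rofecoxib, adjusted p = 0.074, and -0.93 (SE 0.23) between drugs, adjusted p = 0.0369. Crat stood at 57.0, 86.6 and 192 CPM in controls, 47.3, 80.5 and 125 with celecoxib and 68.7, 159 and 211 with rofecoxib. Crat, which moves acetyl groups onto carnitine, gave 0.58 (SE 0.24), adjusted p = 0.113, and -0.84 (SE 0.24), adjusted p = 0.0424, for the same comparisons.

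The forms of the first shuttle enzyme differed. Cpt1b lay at 0.572, 2.39 and 5.30 CPM in controls, 0.435, 1.74 and 4.09 with celecoxib and 1.31, 4.39 and 8.99 with rofecoxib. Its rofecoxib range reached higher than that of controls, with a log2 fold change of 0.89 (SE 0.42) and an adjusted p of 0.168. Cpt1b lies inside the row of Chkb, a more abundant gene, so its reads cannot be told apart from those of its neighbour. Cpt1a stood at 61.8, 70.0 and 73.4 CPM in controls, 66.6, 79.2 and 98.5 with celecoxib and 55.3, 70.2 and 89.8 with rofecoxib. Its log2 fold change was 0.04 (SE 0.09) with rofecoxib (95% interval -0.14 to 0.22) and 0.20 (SE 0.09) with celecoxib, adjusted p = 0.775 and 0.321. Cpt1a was the shuttle gene nearest to 0 with rofecoxib, and 5 of 8 celecoxib libraries lay above every control.

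All 9 genes of mitochondrial beta-oxidation had log2 fold changes above 0 with rofecoxib, from 0.50 for Acadl to 0.76 for Hadhb, and 0 of 9 passed by edgeR, 5 by DESeq2 (Acadm, Acadvl, Hadh, Hadha and Hadhb) and 7 by limma voom (with Acadl and Acads). Between drugs edgeR called 7 of 9 lower with celecoxib. The dehydrogenases that open the cycle are matched to chain length: Acadvl for very long, Acadl for long, Acadm for medium and Acads for short chains. Acadm lay at 97.3, 182 and 381 CPM in controls, 78.4, 168 and 263 with celecoxib and 138, 326 and 555 with rofecoxib. Above every control lay 3 of the 8 rofecoxib libraries, and the groups otherwise overlapped. Acadm gave 0.75 (SE 0.27) with rofecoxib against control, adjusted p = 0.0789, and -1.03 (SE 0.27) between drugs, adjusted p = 0.0389. Acadvl stood at 126, 186 and 388 CPM in controls, 118, 184 and 272 with celecoxib and 171, 336 and 537 with rofecoxib. Its values were 0.67 (SE 0.23), adjusted p = 0.0704, and -0.855 (SE 0.23), adjusted p = 0.0397. The long-chain and short-chain enzymes had group medians in the same order. Acadl stood at 173, 238 and 442 CPM in controls, 148, 214 and 319.7 with celecoxib and 180.5, 371 and 546 with rofecoxib. Acads stood at 21.8, 37.4 and 80.6 CPM in controls, 18.4, 36.8 and 52.6 with celecoxib and 31.6, 63.5 and 101 with rofecoxib. Between drugs Acadl gave -0.72 (SE 0.21), adjusted p = 0.0453, and Acads -0.89 (SE 0.24), adjusted p = 0.0401. Against control, rofecoxib gave 0.50 (SE 0.21) for Acadl and 0.65 (SE 0.24) for Acads, adjusted p = 0.118 and 0.0858.

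The later steps of the cycle gave values in the same range. Hadha and Hadhb encode the subunits of the trifunctional protein, which carries out the last steps on long chains. Hadha lay at 154, 201 and 367 CPM in controls, 156, 192 and 261 with celecoxib and 187, 331 and 436 with rofecoxib. Hadhb stood at 111, 182 and 384 CPM in controls, 113, 176 and 302 with celecoxib and 159, 345 and 543 with rofecoxib. In both, 4 rofecoxib libraries exceeded every control and 3 celecoxib libraries lay below every rofecoxib library. Rofecoxib against control gave 0.55 (SE 0.18) for Hadha and 0.76 (SE 0.25) for Hadhb, adjusted p = 0.0618 and 0.0636. Between drugs Hadha gave -0.68 (SE 0.18) and Hadhb -0.93 (SE 0.255), adjusted p = 0.0397 and 0.0404. Hadh, the dehydrogenase for shorter chains, overlapped between groups as well. Hadh stood at 50.9, 94.2 and 210.4 CPM in controls, 42.0, 94.8 and 140.1 with celecoxib and 74.2, 187 and 266 with rofecoxib. It gave 0.75 (SE 0.27) with rofecoxib, adjusted p = 0.0818, and -1.02 (SE 0.27) between drugs, adjusted p = 0.0397. Acaa2, the thiolase of the cycle, and Decr1, which handles unsaturated chains, were not called between diets by edgeR, and DESeq2 called Acaa2 lower with celecoxib than with rofecoxib. With rofecoxib against control they gave 0.74 (SE 0.34) and 0.60 (SE 0.25), and between drugs -1.08 (SE 0.34) and -0.64 (SE 0.25).

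The sequence just upstream of these genes was searched for the elements that PPARs and the related ERR receptors bind. RefSeq promoter windows (GRCm38.p6, 250 bases before to 50 after the start) were found for 28 of the 35 genes. They were not found for Abcd2, Acaa2, Angptl4, Cpt1b, Crat, Decr1 and Ppargc1b. The PPAR element, 2 copies of AGGTCA in the same direction with 1 base between them, was in 0 of the 28, on either strand, and in 0.0396% of all 32851 windows. A looser form with copies of AGGNCA was in 0 and in 0.381%. The element AAGGTCA of ERR receptors was in 1 of the 28, Acadm, and in 4.72% of all windows, and it holds the letters AGGTCA of the PPAR element. These are letters in 1 short window, and PPAR elements can lie elsewhere. Ehhadh is shown, 250 bases upstream on its own strand, as the gene called in every fit that left out 1 library. Acadm is shown, likewise 250 bases, for the match, whose letters on the opposite strand are in capitals. Hadha and Hadhb start on opposite strands beside each other, and the stretch shown under Hadhb lies upstream of both and outside their GENCODE exons.
Ehhadh chr16:21787835-21788084 (minus strand): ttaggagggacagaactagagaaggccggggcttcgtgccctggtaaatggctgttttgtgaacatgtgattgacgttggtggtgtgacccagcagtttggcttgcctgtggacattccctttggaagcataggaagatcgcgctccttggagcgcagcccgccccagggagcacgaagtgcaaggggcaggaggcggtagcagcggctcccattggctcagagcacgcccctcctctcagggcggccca
Acadm chr3:153944644-153944893 (minus strand): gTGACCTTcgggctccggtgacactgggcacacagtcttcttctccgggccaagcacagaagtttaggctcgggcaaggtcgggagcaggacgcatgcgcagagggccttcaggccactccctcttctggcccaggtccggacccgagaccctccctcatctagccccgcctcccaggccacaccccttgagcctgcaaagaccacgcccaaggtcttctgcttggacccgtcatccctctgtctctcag
Hadhb chr5:30155163-30155230 (plus strand): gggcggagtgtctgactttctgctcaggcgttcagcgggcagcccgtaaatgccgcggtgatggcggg

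Electron transfer, the route by which the acyl-CoA dehydrogenases pass electrons to ubiquinone, had 1 of 3 genes called with rofecoxib by edgeR and 3 of 3 lower in celecoxib against rofecoxib. Etfdh lay at 69.7, 83.8 and 153 CPM in controls, 67.0, 84.2 and 112 with celecoxib and 80.4, 143 and 208 with rofecoxib. Etfdh (ENSMUSG00000027809, chromosome 3, 79407508 to 79432987 on mm9) encodes the membrane enzyme of this route, and 4 of 8 rofecoxib libraries lay above every control. It rose with rofecoxib by 0.605 (SE 0.18) on the log2 scale, adjusted p = 0.0476. Celecoxib against rofecoxib gave -0.70 (SE 0.185), adjusted p = 0.0387. Etfa stood at 91.1, 136 and 226 CPM in controls, 86.8, 130.5 and 174 with celecoxib and 120.0, 203 and 324 with rofecoxib. Etfb stood at 51.4, 88.9 and 170.3 CPM in controls, 38.6, 75.4 and 102 with celecoxib and 64.1, 129.7 and 178 with rofecoxib. These are the subunits of the flavoprotein itself, and 3 rofecoxib libraries lay above every control in Etfa and 2 in Etfb, with the others inside the control range. Against control, rofecoxib gave 0.57 (SE 0.19) for Etfa and 0.43 (SE 0.22) for Etfb, adjusted p = 0.0621 and 0.202. Between drugs they gave -0.67 (SE 0.19) and -0.81 (SE 0.22), adjusted p = 0.0423 and 0.0412.

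Among the peroxisomal genes 1 of 5, Ehhadh, rose with rofecoxib and 2 of 5, Ehhadh and Abcd2, were lower in celecoxib against rofecoxib. Ehhadh lay at 9.72, 13.1 and 16.8 CPM in controls, 11.2, 13.6 and 16.0 with celecoxib and 13.7, 21.9 and 36.8 with rofecoxib. The celecoxib libraries lay inside the control range, while 5 of 8 rofecoxib libraries lay above every control and every celecoxib library. Ehhadh (ENSMUSG00000022853, chromosome 16, 21761158 to 21788119 on mm9) encodes the bifunctional enzyme of peroxisomal beta-oxidation and is a textbook PPARα target. Its log2 fold change with rofecoxib was 0.77 (SE 0.16), adjusted p = 0.00989, and with celecoxib 0.04 (SE 0.16), adjusted p = 0.917. Between drugs it was -0.73 (SE 0.16), adjusted p = 0.0369. Abcd2 stood at 3.14, 10.5 and 20.8 CPM in controls, 4.50, 10.2 and 17.3 with celecoxib and 6.55, 21.2 and 41.2 with rofecoxib. Abcd2 imports very long chain acyl-CoA into peroxisomes, and 4 rofecoxib libraries exceeded every control. It gave 0.97 (SE 0.32) with rofecoxib against control, adjusted p = 0.0595, and -1.09 (SE 0.32) between drugs, adjusted p = 0.0469. Abcd3, a related transporter, Acaa1a, the peroxisomal thiolase, and Pex11a, which helps peroxisomes divide, were not called by edgeR. With rofecoxib they gave 0.095 (SE 0.08), 0.03 (SE 0.06) and 0.20 (SE 0.17), and for Acaa1a the 95% interval was -0.11 to 0.16.

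Both acyl-CoA thioesterases, which release free fatty acid from CoA, rose with rofecoxib. Acot2 lay at 3.32, 4.01 and 7.16 CPM in controls, 3.63, 4.20 and 6.46 with celecoxib and 4.40, 8.82 and 12.3 with rofecoxib. Acot1 stood at 0.389, 0.750 and 1.14 CPM in controls, 0.389, 0.561 and 0.962 with celecoxib and 0.655, 1.75 and 2.06 with rofecoxib. In each, 5 of 8 rofecoxib libraries were above every control and the celecoxib libraries lay inside the control range. Acot2 (ENSMUSG00000021226, chromosome 12, 85328609 to 85335025 on mm9), the mitochondrial form, rose by 0.84 (SE 0.215) on the log2 scale, adjusted p = 0.0241. Acot1 (ENSMUSG00000072949, chromosome 12, 85350246 to 85358823 on mm9), its cytosolic neighbour, rose by 1.025 (SE 0.26), adjusted p = 0.0249. In celecoxib against rofecoxib they gave -0.91 (SE 0.215) and -1.15 (SE 0.27), adjusted p = 0.0369 and 0.0369. The genes are close copies: 33.6% of the 50-base stretches of the Acot1 transcript and 27.7% of those of Acot2 occur in another gene, mostly in each other, so reads may have been shared between them. Acot1 was also the lowest of the 35 genes per kb, near 1 CPM.

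**Figure D2:**
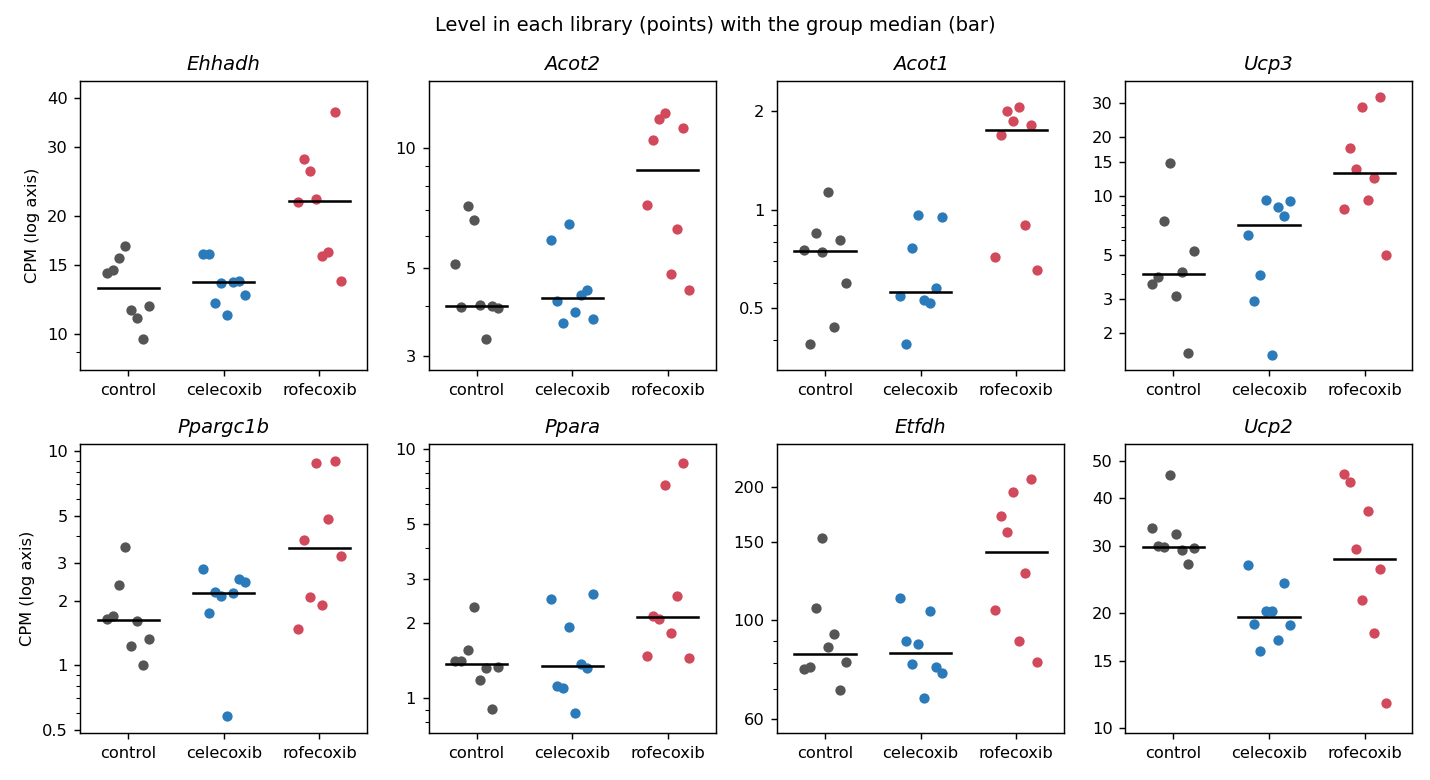
CPM in each library (points, log axis) for the 7 genes called in rofecoxib against control and for Ucp2, with group medians as bars; control is grey, celecoxib blue and rofecoxib red, 8 libraries each. Some rofecoxib libraries lie within the control range in each panel, Ppara has 2 rofecoxib points far above the rest, and all celecoxib points of Ucp2 lie below the controls.

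The 8 genes of fuel switching, uncoupling and lipid handling had 1 that rose with rofecoxib, and 6 of 8 log2 fold changes were above 0. Ucp3 lay at 1.57, 3.99 and 14.8 CPM in controls, 1.55, 7.13 and 9.57 with celecoxib and 5.01, 13.1 and 32.3 with rofecoxib. Ucp3 (ENSMUSG00000032942, chromosome 7, 107621297 to 107635143 on mm9) encodes an uncoupling protein of muscle and brown fat that fatty acids induce. All 8 rofecoxib libraries were above the control median and 3 of 8 exceeded the highest control, replicate 4. It rose with rofecoxib by 1.55 (SE 0.425) on the log2 scale, adjusted p = 0.0321, and gave -1.34 (SE 0.42) between drugs, adjusted p = 0.0599. Plin5 stood at 3.57, 10.2 and 30.9 CPM in controls, 1.84, 10.4 and 15.2 with celecoxib and 7.12, 25.6 and 43.1 with rofecoxib. Plin5 gave 0.96 (SE 0.41) with rofecoxib, adjusted p = 0.134, and -1.43 (SE 0.42) between drugs, adjusted p = 0.0484, where 3 celecoxib libraries were below every rofecoxib library.

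By edgeR neither of the inhibitory kinases of pyruvate dehydrogenase, Pdk4 and Pdk2, was called, and DESeq2 called Pdk2 in celecoxib against rofecoxib. Pdk4 lay at 372, 425 and 648 CPM in controls, 219, 329 and 548 with celecoxib and 226, 369.9 and 599.5 with rofecoxib. Below every control lay 6 of 8 celecoxib and 4 of 8 rofecoxib libraries. Pdk4, which fasting and PPARs induce, gave -0.48 (SE 0.19) with celecoxib, adjusted p = 0.278, and -0.30 (SE 0.19) with rofecoxib, adjusted p = 0.3. Pdk2 gave -0.33 (SE 0.22) and 0.35 (SE 0.22) for the same comparisons, adjusted p = 0.507 and 0.288. Angptl4, a secreted lipoprotein lipase inhibitor and PPAR target, gave -0.20 (SE 0.20) and 0.26 (SE 0.20), adjusted p = 0.669 and 0.394. Slc27a1, a fatty acid transporter, gave -0.40 (SE 0.27) and 0.43 (SE 0.27), and Mlycd, which removes the malonyl-CoA that blocks the carnitine shuttle, -0.10 (SE 0.11) and 0.24 (SE 0.11).

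Ucp2 was the gene that stood lowest with celecoxib against control. Ucp2 lay at 26.9, 29.8 and 45.9 CPM in controls, 15.9, 19.5 and 26.7 with celecoxib and 11.7, 27.8 and 46.2 with rofecoxib. All 8 celecoxib libraries lay below every control, an arrangement found in 0.145% of all genes, while the rofecoxib libraries spread from below the celecoxib range to just above the control range. Ucp2 (ENSMUSG00000033685, chromosome 7, 107641644 to 107650731 on mm9) encodes a widely expressed mitochondrial carrier that lies beside Ucp3 on the chromosome. Its log2 fold change with celecoxib was -0.67 (SE 0.20), adjusted p = 0.195, not past the threshold. In the fit of celecoxib and control libraries alone it was -0.67 (SE 0.115), adjusted p = 0.0214, past it, as were 0.318% of all genes in that fit. DESeq2 gave an adjusted p of 0.074 and limma voom 0.0649. With brown adipocyte and skeletal muscle levels in the fit it was -0.61 (SE 0.22), adjusted p = 0.21. Rofecoxib against control gave -0.14 (SE 0.20), adjusted p = 0.676, and celecoxib against rofecoxib -0.53 (SE 0.20), adjusted p = 0.111.

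Of the 3 regulators, Ppara and Ppargc1b rose with rofecoxib. Ppara lay at 0.905, 1.37 and 2.33 CPM in controls, 0.871, 1.35 and 2.63 with celecoxib and 1.45, 2.11 and 8.77 with rofecoxib. In rofecoxib replicates 4 and 7 it reached 7.17 and 8.77 CPM, and in the other 6 it was at most 2.56, beside a highest control of 2.33. Ppara (ENSMUSG00000022383, chromosome 15, 85565211 to 85633451 on mm9) encodes PPARα and gave 1.26 (SE 0.36), adjusted p = 0.0367. Without rofecoxib replicate 4 it was 1.02 and without replicate 7 0.90, neither past the threshold. Ppargc1b stood at 1.0, 1.63 and 3.58 CPM in controls, 0.581, 2.19 and 2.82 with celecoxib and 1.48, 3.53 and 9.04 with rofecoxib. Replicates 4 and 7 were again the highest rofecoxib libraries, at 8.86 and 9.04 CPM. Ppargc1b (ENSMUSG00000033871, chromosome 18, 61457588 to 61560287 on mm9) encodes the coactivator PGC-1β and rose by 1.28 (SE 0.36) on the log2 scale, adjusted p = 0.0348. Between drugs Ppara gave -1.09 (SE 0.36) and Ppargc1b -1.08 (SE 0.35), adjusted p = 0.0655 and 0.0674. Ppard, the gene of PPARδ, lay far above Ppara in level, at 21.5 against 0.402 CPM per kb in controls. It gave -0.29 (SE 0.13) with rofecoxib and -0.28 (SE 0.13) with celecoxib, adjusted p = 0.144 and 0.353.

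Most of these genes followed the brown adipocyte marker level from library to library within a diet. In a fit of diet, brown adipocyte level and skeletal muscle level, 26 of 35 genes rose with the brown adipocyte level and 0 fell, where 13.0% of all genes were called, 8.56% rising and 4.46% falling. No marker is one of the 35 genes. The slope (log2 CPM per log2 unit of marker level) had a median of 0.52, against -0.005 over all genes. All 9 mitochondrial beta-oxidation genes, all 3 electron transfer genes, 4 of 5 shuttle genes and 3 of 5 peroxisomal genes were called. The steepest were Plin5 at 1.19 (SE 0.05), adjusted p = 4.47e-13, Cpt1b at 1.16 (SE 0.11), Ucp3 at 1.10 (SE 0.10) and Acaa2 at 0.93 (SE 0.05). Acadm stood at 0.72 (SE 0.04), Ppargc1b at 0.80 (SE 0.125), Ppara at 0.78 (SE 0.13) and Ehhadh at 0.33 (SE 0.06).

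The 9 genes not called were Cpt1a, Acaa1a, Abcd3, Acot1, Pdk4, Angptl4, Ucp2, Slc27a1 and Ppard. Their slopes ran from -0.06 for Ppard to 0.32 for Slc27a1, and Cpt1a gave 0.01 (SE 0.05). Cpt1b and Cpt1a, or Ucp3 and Ucp2 with a slope of 0.11 (SE 0.11), are pairs of relatives of which 1 tracked the marker level and the other was not called. For Cpt1b the limit given above holds here too, as its reads cannot be told apart from those of Chkb. On the skeletal muscle level 0 of 35 genes were called by edgeR, where 0.0413% of all genes were. Of the 6 genes called, 5 were skeletal muscle markers. Before adjustment 1 of the 35, Decr1, had a p under 0.05, as did 290 of the 14528. The skeletal muscle level was 3.48 in control replicate 3 and at most 1.868 elsewhere, so 1 library set most of its range. Without that library edgeR gave 1106 of 14602 genes a p under 0.05 before adjustment. This slope thus says little about the 35 genes. No other tool was run for slopes.

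**Figure D3:**
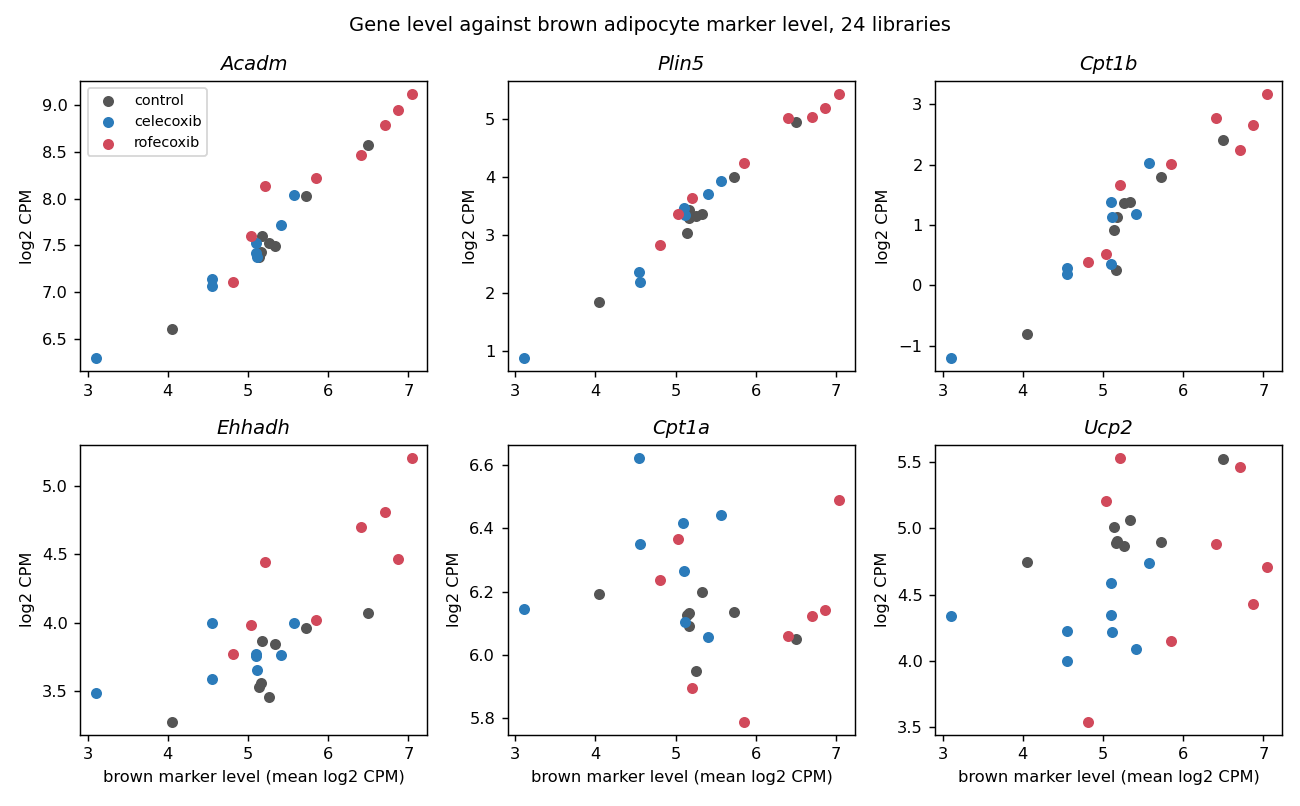
Log2 CPM of 6 genes (y axes) against the brown adipocyte marker level (x axes, mean log2 CPM of 8 markers) in 24 libraries, coloured by diet. Acadm, Plin5 and Cpt1b rise with the marker level in every diet, Ehhadh rises less steeply, and Cpt1a and Ucp2 show no slope that passed the test. Cpt1b reads cannot be told apart from those of Chkb.

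With the marker levels in the fit, the median difference with rofecoxib was smaller. In rofecoxib against control the median log2 fold change of the 35 genes went from 0.605 to 0.217, with 29 of 35 above 0, and over all genes the median was 0.026 with 56.6% above 0. By edgeR 2 of the 35 were called, where 1.34% of all genes were. They were Ehhadh at 0.52 (SE 0.12), adjusted p = 0.0347, and Ucp3 at 0.82 (SE 0.18), adjusted p = 0.0323. Acot1 stood at 0.83 (SE 0.28), adjusted p = 0.114, and Acot2 0.515 (SE 0.16), adjusted p = 0.0862. Plin5 and Cpt1b went to 0.10 (SE 0.09) and 0.07 (SE 0.20), adjusted p = 0.545 and 0.88. Pdk4 stood at -0.49 (SE 0.18), adjusted p = 0.135.

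The general adipocyte level gave a lower median still. With it in the fit, 0 of 35 genes were called in rofecoxib against control by edgeR, where 0.193% of all genes were. Before adjustment 6 of the 35 had a p under 0.05, as did 2287 of all 14528 genes. The median was 0.07 with 23 of 35 above 0, and over all genes 0.020 with 55.7% above 0. Ehhadh then stood at 0.48 (SE 0.16), adjusted p = 0.165, and Abcd2 at 0.025 (SE 0.11), adjusted p = 0.935. In celecoxib against control the median of -0.20 turned to 0.103 with brown adipocyte and skeletal muscle levels in the fit, with 25 of 35 above 0 (52.0% of all genes), and to -0.099 with the general adipocyte level, with 8 of 35 above 0 (50.5% of all genes). In those fits edgeR called 0 of 35, with 0% and 0.0206% of all genes called. Before adjustment 6 and 4 of the 35 had a p under 0.05, as did 2239 and 2131 of all 14528 genes. In celecoxib against rofecoxib the median went from -0.829 to -0.091 and -0.153. There edgeR called 0 of 35 and 0% of all genes in both fits. Before adjustment 3 and 2 of the 35 had a p under 0.05, as did 1376 and 527 of all 14528 genes. Marker levels and diet were not independent in these libraries, so their shares in the differences cannot be told apart by these fits.

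**Figure D4:**
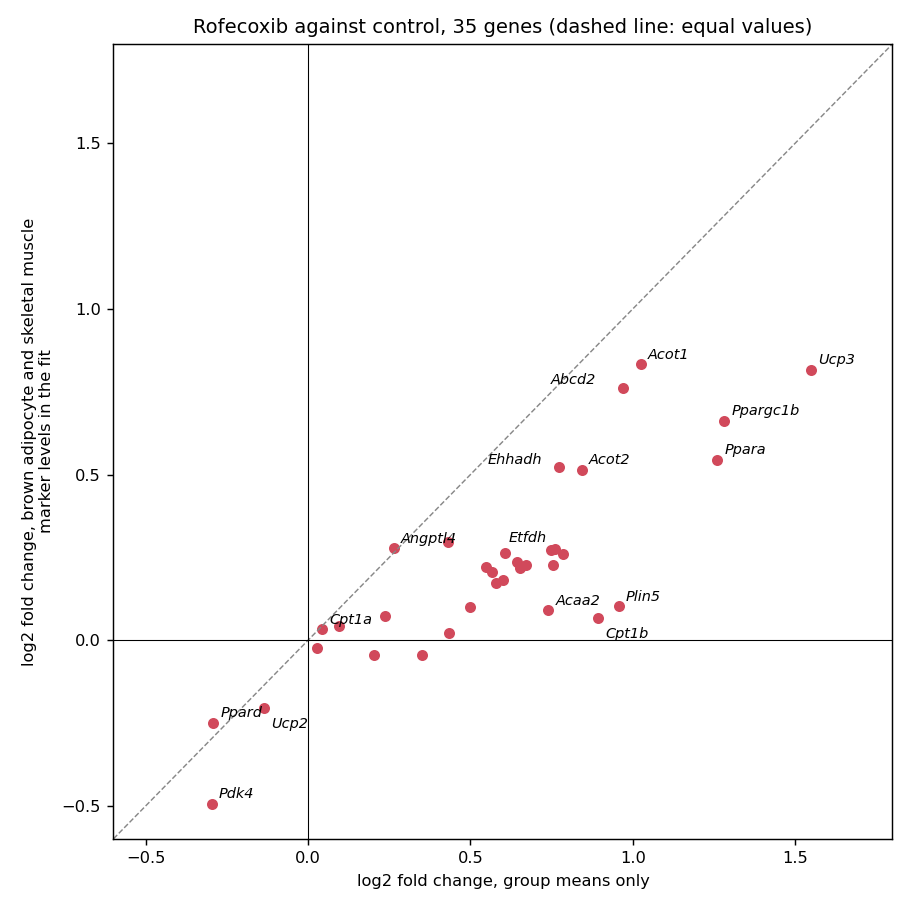
Log2 fold change of the 35 genes in rofecoxib against control with group means only (x axis) and with brown adipocyte and skeletal muscle marker levels added to the fit (y axis); points below the dashed line are higher before than after. Plin5 and Cpt1b (reads not separable from Chkb) lie close to 0 on the y axis, at 0.10 and 0.07, while Acot1, Ucp3, Abcd2, Ppargc1b, Ppara, Ehhadh and Acot2 stay above 0.5.

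The wider pathway was read from 72 other genes, 66 of them tested. In rofecoxib against control 12 of these 66 rose by edgeR and 0 fell, where 3.88% of all genes rose and 3.06% fell. DESeq2 called 22 as higher and 0 as lower, and limma voom 31 and 1. Those tools called 12.5% and 16.9% of all genes in either direction. Acad9, an acyl-CoA dehydrogenase that also helps assemble respiratory complex I, rose by 0.27 (SE 0.055) on the log2 scale, adjusted p = 0.00949, from a control median of 31.2 to 37.5 CPM. Fabp3, a fatty acid binding protein of oxidative tissue, rose by 1.09 (SE 0.27), adjusted p = 0.0222, Mgll, which finishes triglyceride breakdown, by 0.40 (SE 0.10), adjusted p = 0.0224, and Esrrg, an estrogen-related receptor that drives oxidative genes, by 0.92 (SE 0.25), adjusted p = 0.0333.

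In celecoxib against control 0 of the 66 were called by edgeR, 0 by DESeq2 and 0 by limma voom. Before adjustment 0, 1 and 2 of the 66 had a p under 0.05, as did 1969, 2070 and 2886 of all 14528 genes. Between drugs 27 of the 66 were lower with celecoxib by edgeR, where 4.32% of all genes were. The 4 with the smallest p were Mgll at -0.50 (SE 0.10), the binding protein Fabp5 at -1.13 (SE 0.24), the acyl-CoA synthetase Acsl1 at -0.62 (SE 0.14) and the fatty acid translocase Cd36 at -1.15 (SE 0.26), all at an adjusted p of 0.0369. With the brown adipocyte level 42 of 66 rose and 0 fell, where 8.56% of all genes rose and 4.46% fell. By group, 5 of 11 uptake and activation genes rose with rofecoxib against control, 1 of 12 further mitochondrial genes and 2 of 13 tested further peroxisomal genes. So did 1 of 4 ketone body genes, 1 of 11 tested PPAR target and lipid droplet genes and 2 of 15 regulators. Of all genes 3.88% rose, and counts of 1 or 2 in lists this short were not tested against that share.

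Of the marker lists themselves, 0 of 8 brown adipocyte genes were called in rofecoxib against control by edgeR (0 by DESeq2, 1 by limma voom, 4 with a p under 0.05 before adjustment, median log2 fold change 0.879) and 3 of 14 general adipocyte genes rose. Between drugs 3 of 8 and 7 of 14 were lower with celecoxib. Of all genes, edgeR called 3.88% higher and 3.06% lower in rofecoxib against control. Between drugs it called 4.32% lower with celecoxib. Ucp1 gave 1.19 (SE 0.50) with rofecoxib and -0.77 (SE 0.50) with celecoxib, and Adipoq, the adipocyte hormone adiponectin, 0.63 (SE 0.29) and -0.35 (SE 0.29), none past the threshold in either. Other lists differed too. With rofecoxib against control edgeR called 3 of 9 endothelial and 1 of 7 macrophage markers higher and 1 of 9 smooth muscle and 1 of 6 fibroblast markers lower. All 9 endothelial, 7 macrophage, 4 tested neutrophil and 4 Schwann cell markers had log2 fold changes above 0, with medians of 0.35, 0.33, 0.69 and 1.24, and all 9 smooth muscle markers were below 0, with a median of -0.16. The 6 skeletal and 7 cardiac muscle markers tested had medians of -0.64 and -0.07, with 0 called. Between drugs 4 of 4 neutrophil, 4 of 7 macrophage and 3 of 4 Schwann cell markers were lower with celecoxib. In celecoxib against control 0 markers of any list were called by edgeR. Before adjustment 6 of 7 cardiac and 3 of 4 neutrophil markers had a p under 0.05, against 13.6% of all genes.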

How the data were processed

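Thoracic aorta RNA was poly(A)-selected and made into libraries over 3 days, per the labels' protocols. Whole-number read counts per gene were deposited by the authors. The submitters' processing notes name CASAVA 1.8.1, STAR 2.5.1b and the mm9 build. Counter, annotation, strand setting and library days: not given in the sources used here. Library totals differed by 0.145% of the lowest, and whether the authors made them alike is not given, and depth before such a step is not known.

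Groups came from the labels. The deposited counts of 24 libraries were fitted in edgeR 4.0.16 (R 4.3.3) with TMM scaling, the default expression filter (14528 genes left), 1 mean per group and the quasi-likelihood test, two-sided, with Benjamini-Hochberg adjustment over all genes and a threshold of 0.05. Celecoxib and rofecoxib share the same 8 controls. The slope fit added the mean log2 CPM (prior count 2) of the brown adipocyte and skeletal muscle markers. CPM per kb used the length of 1 principal GENCODE transcript per gene. Alternatives were other scalings and filters, DESeq2 1.42.0, limma 3.58.1 voom with sample weights, the compared groups alone, marker covariates, replicates 1 to 4 and 5 to 8 apart, the replicate number as a block and each library left out. The scripts were tested on simulated data. The members and lists were chosen with earlier results of these data known. For the wider pathway, 1 gene is not reported here. Members called in any comparison are given with their levels.

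The labels do not say whether replicate numbers pair the samples, and the counts did not settle it. Of 24 same-numbered pairs 12 correlated above 0.1 (range -0.30 to 0.56). In 6 of the 24 the same number was the best match in the other group. Some counts may mix genes. Cpt1b lies inside the Chkb row, whose mean count is 1298.6 against 65.7, and Hadha overlaps Hadhb by 319 bases. Of the 50-base stretches of each transcript, 93.0% in Cpt1b, 67.3% in Etfb, 62.4% in Hadhb and 34.0% in Acaa1a also occur in transcripts of another gene, a pseudogene or a readthrough transcript included.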

Additional observations from a re-analysis of the deposited data

Results flagged for a closer look

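Of 105 groups of 8 libraries (35 genes in 3 diets), 4 had a library far from the others by Dixon's criterion. That share was not above the 1 in 20 or so that chance gives. Decr1 was highest in control replicate 4 at 7.24 log2 CPM (151.5 CPM), and Ucp2 was highest in the same library at 5.52 log2 CPM (45.9 CPM). Abcd2 was lowest in control replicate 7 at 1.69 log2 CPM (3.14 CPM), and Ppargc1b was lowest in celecoxib replicate 5 at -0.57 log2 CPM (0.58 CPM). Control replicate 4 had the highest and control replicate 7 the lowest brown adipocyte level of the controls, and celecoxib replicate 5 the lowest of all 24 libraries. The part of that level in these values was not tested.

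The effects of the 2 drugs against the shared controls differed, in edgeR's test of celecoxib against rofecoxib, for 18 genes. On the log2 scale celecoxib minus rofecoxib was -0.93 for Cpt2, -1.10 for Slc25a20, -0.84 for Crat, -0.89 for Acads, -1.03 for Acadm, -0.72 for Acadl, -0.855 for Acadvl, -1.02 for Hadh and -0.68 for Hadha. It was -0.93 for Hadhb, -0.67 for Etfa, -0.81 for Etfb, -0.70 for Etfdh, -0.73 for Ehhadh, -1.09 for Abcd2, -1.15 for Acot1, -0.91 for Acot2 and -1.43 for Plin5. The doses differed, and the brown adipocyte level differed between these groups by -1.18 log2 units.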

How the results depend on the processing

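In rofecoxib against control the count of 7 genes became 12 with library size alone, 4 with no filter, 16 with DESeq2, 21 with limma voom (sample weights), 4 in the fit of the compared groups, 2 with brown adipocyte and skeletal muscle levels, 0 with the general adipocyte level, 16 with replicates 1 to 4 against 5 to 8 as a term, 1 with replicates 1 to 4 only and 0 with 5 to 8 only. Of all genes, 266 rose and 291 fell with no filter (25136 tested), and 436 and 461 in the compared groups (14246). With replicates 1 to 4 against 5 to 8 as a term, 920 rose and 815 fell (14528). Replicates 1 to 4 only gave 23 and 19 (14669), and 5 to 8 only 99 and 302 (14430). Leaving out 1 library gave 1 to 22 of the 35. Celecoxib against control gave 0 in the settings tried except the fit of the compared groups, which gave 1 (Ucp2). Celecoxib against rofecoxib gave 18, and 0 with no filter, in the compared groups alone, with the replicate block, with either marker covariate and with replicates 5 to 8 only, and 0 to 28 when 1 library was left out. In these settings with 0, apart from the leaving out of 1 library, edgeR called 0 of all genes. Between drugs DESeq2 gave 26, where it called 318 of 14528 genes higher and 1101 lower. With the replicate block the counts were 7 in rofecoxib against control and 0 in celecoxib against control. Of all 14528 genes that fit called 625 higher and 562 lower with rofecoxib, and 9 and 18 with celecoxib. What libraries of the same number share is not stated in the labels. The Abcd2 difference between drugs turned from -1.09 to 0.073 with the general adipocyte level. The brown adipocyte slope counts ranged from 26 to 29 over scalings, filters and the fit without diet, and from 25 to 28 without 1 library. Of all genes, 1070 rose and 406 fell with no filter (25136 tested), and 1711 and 1137 without diet (14528). Leaving out 1 library gave from 946 and 310 (without control replicate 4) to 1403 and 1056 (without celecoxib replicate 6). The causes were not tested. Library size alone gave 1106 higher and 310 lower genes in rofecoxib against control, against 563 and 445 with TMM, and the median of all genes was 0.084 and 0.023. Within replicates 1 to 4 and 5 to 8 the median of the 35 genes was 0.557 and 0.631 for rofecoxib and -0.369 and 0.015 for celecoxib, against control. Of the single values named, 313 of 665 between drugs and 83 of 258 for rofecoxib lost their call under an alternative with the same direction. Lowest in level were Acot1, Ppara and Ppargc1b, near 1 CPM in controls.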
